A study of Homo sapiens with 12 samples.

Results

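HCT116, a human colorectal carcinoma cell line of epithelial origin, was followed on microarrays from S phase into G2 and mitosis. The 6 arrays described here are those of cells released with DMSO, the solvent control, for 0, 2 and 4 h (the early window) and for 6, 7 and 8 h (the late window), out of 12 arrays in the series. All cells had been synchronized by 2 exposures to 2 mM thymidine, which stops DNA synthesis, the first for 19 h and the second for 16 h, with 9 h without thymidine between them. The other arrays carry cells released with DMSO for 9 and 10 h, and cells released into nocodazole, a microtubule poison (0.1 mg/ml as the labels give it), and collected at 7, 8, 9 and 10 h. Genes were included where a probe set with a single gene symbol reached a log2 signal of 5 on at least 2 arrays, which kept 9130 of 19775 genes, each read from its brightest such probe set. Each hour had 1 array of an Affymetrix U133 Plus 2.0 type, so the spread behind every p below is that between neighbouring hours of a window and not that between cultures. An array measures a culture as a whole, and more cells in a phase and more RNA per cell cannot be told apart.

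In S phase a cell copies its genome with enzymes whose genes are switched on by E2F factors near the end of G1, and on the way to mitosis a different set is switched on, for the kinases, motors and checkpoint proteins that divide the chromosomes. Ribosomes are assembled in the nucleolus, where RNA polymerase I makes the ribosomal RNA precursor and many assembly factors fold and cut it, and the nucleolus is taken apart in mitosis.

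The arrays did not all have the same overall signal. The median log2 signal of the kept genes was 9.16, 9.20 and 9.12 at 0, 2 and 4 h and 9.29, 9.47 and 9.23 at 6, 7 and 8 h, and the highest values of the DMSO course were those at 7 h and 10 h (9.56). The 3 probe sets for 18S ribosomal RNA averaged 8.32 at 4 h and 3.55 to 4.05 on the other DMSO arrays. The 3' signal of ACTB exceeded its 5' signal by 1.01 to 1.15 in the early window and by 0.757 to 1.03 in the late window, with the lowest value at 7 h. Because of the shift in overall signal, every gene was read on 2 scales, the log2 values as deposited and the same values after quantile normalization, which gives each array the same distribution. The median difference between the windows over all kept genes was 0.06 as deposited and -0.10 after quantile normalization, a shift of 0.16, and single differences are best read against these medians. The part of overall signal, 18S signal and 3' to 5' ratio in the results was not tested.

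The sample titles give the treatment and the hour and name no phase. Reading the 2 windows as S phase and as G2 and mitosis was set against 4 genes that mark the phases, and none of the 4 went against it. The 0 h array carries cells taken at release from the second thymidine exposure. PLK1, a kinase that drives mitotic entry and spindle assembly, had log2 signals of 8.22, 9.12 and 10.04 at 0, 2 and 4 h and of 11.18, 11.62 and 11.48 at 6, 7 and 8 h, and rose by 2.30 (SE 0.38, adjusted p = 0.0220, 4.92-fold). AURKA, the Aurora A kinase of spindle poles, stood at 10.06, 10.51 and 11.53 and then at 12.58, 12.70 and 12.49. CENPE, a kinetochore motor, went from 5.16, 6.61 and 8.06 to 9.12, 9.60 and 8.89. All 3 climbed within the early window already, and their lowest late array still lay above their highest early one. CCNE2, the cyclin E2 of S phase entry, ran the other way, from 12.18, 11.50 and 10.41 to 8.87, 8.78 and 9.31, and fell by 2.38 (SE 0.40, adjusted p = 0.0220). The line itself was recognizable from EPCAM (13.99 to 14.36 over the 6 arrays), CDH1 (10.42 to 11.16), KRT8, KRT18 and KRT19, while CDH17, an intestinal cadherin, stood at 2.04 to 2.20. Of the markers of other cells, PTPRC, CD3E, PECAM1, COL1A2 and CDH2 did not pass the level filter, and COL1A1 did (7.90 to 8.42).

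**Figure D1:**
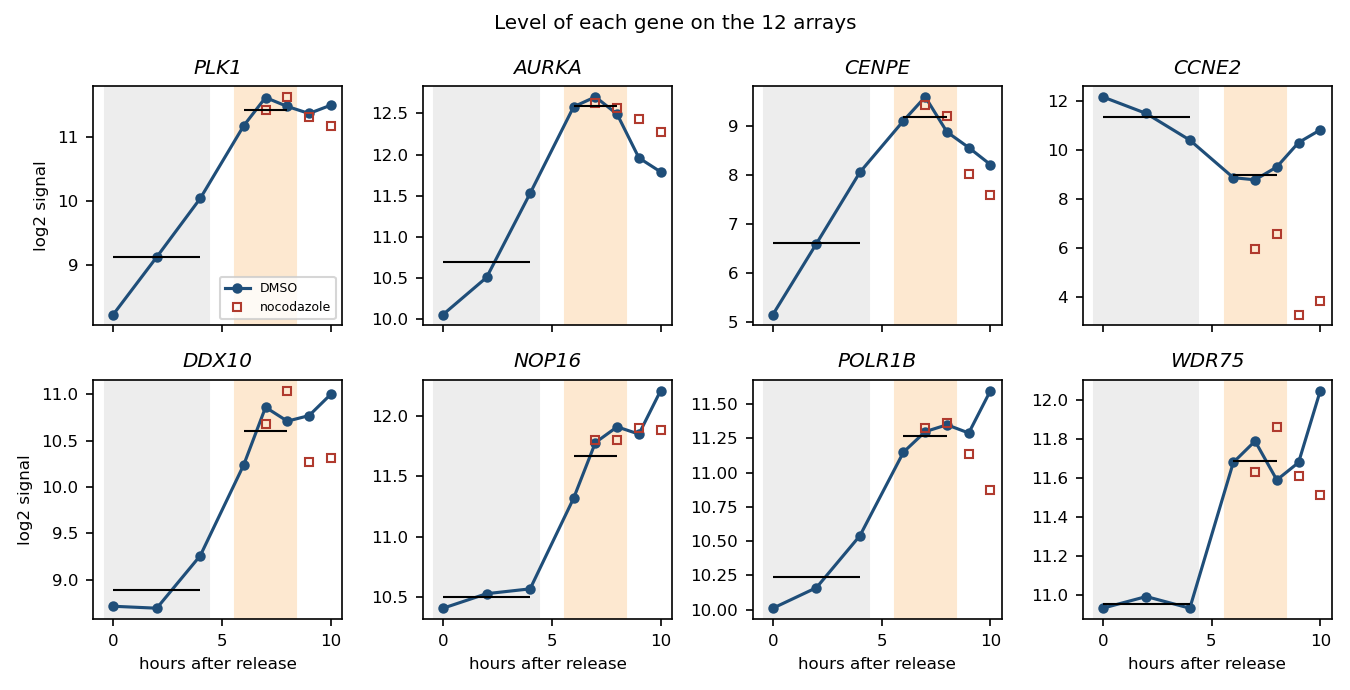
Log2 signal (vertical axes) by hours after release (horizontal axes) for 4 phase markers and 4 ribosome biogenesis genes, with 1 array per point, DMSO as filled circles and nocodazole as open squares. Grey marks the early and orange the late window and horizontal bars their means, and in each panel the late DMSO points lie wholly above, or for CCNE2 wholly below, the early ones.

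Between the windows 552 of 9130 genes passed an adjusted p of 0.05 as deposited, 494 of them higher late (5.41% of the kept genes) and 58 lower (0.635%). After quantile normalization 884 passed, 464 higher (5.08%) and 420 lower (4.6%). The share of calls that were higher was thus 89.5% on one scale and 52.5% on the other, and the balance between risers and fallers is set by the scale. All 58 genes called lower as deposited were also lower after quantile normalization, and 82 of the 494 called higher were not called there. The genes followed below passed on both scales, in the same direction, with no overlap between the 3 early and the 3 late arrays: 412 higher (4.51% of the kept genes) and 58 lower (0.635%). The windows failed to overlap for 1898 genes upward (20.8%) and for 911 downward (9.98%) when no test was asked for. Leaving out the 4 h array, with its 18S signal, gave 420 genes higher (4.6%) and 128 lower (1.4%) as deposited, among them 301 of the 412 and 39 of the 58. With all arrays, 2274 of the 9130 genes had an unadjusted p under 0.05 as deposited (limma). Counts of list members at that level, given below, are to be read against this background.

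The count rests on single hours. No gene passed without the 2 h, the 7 h or the 8 h array (limma, with 1669, 1368 and 1804 genes at an unadjusted p under 0.05), 134 passed without 0 h, 212 without 9 h and 226 without 10 h, and 1266 passed without 6 h. With the 6 arrays alone, without 9 and 10 h in the estimate of the spread, 100 passed. With the mean of all kept probe sets of a gene in place of the brightest, 469 of the 470 genes had the same direction, and without probe sets that can bind several transcripts 345 of 349 did.

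**Figure D2:**
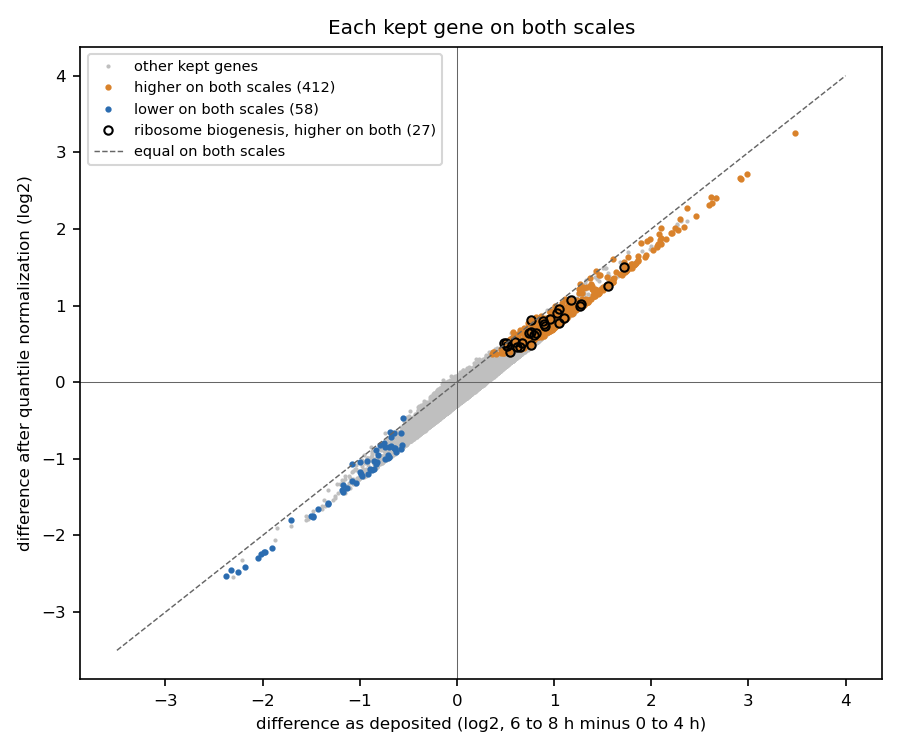
Difference between the late and early window of each of 9130 genes as deposited (horizontal axis, log2) and after quantile normalization (vertical axis, log2), with colours for the 412 genes higher and the 58 lower on both scales and black circles for 27 ribosome biogenesis genes. Most points lie below the dashed line of equal values, and the medians of all genes are 0.06 on the horizontal and -0.10 on the vertical axis.

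Genes inside and outside the cell cycle moved. Counting as cell cycle genes the 252 CCS genes named by the study and the members of 6 lists of mitotic, replication and checkpoint genes, 350 of the 412 genes higher (85.0%) and 46 of the 58 lower (79.3%) lay outside them, against 95.7% of all kept genes. Outside means absent from these sets and not unrelated to division. The centrosome genes HAUS6, HAUS1 and CCP110, for example, were counted outside. The differences of the 412 ran from 0.36 to 3.48 with a median of 0.996 (0.793 after quantile normalization), and 206 of them were at least 1, a 2-fold change, 171 of these outside the cell cycle. The 58 fell by 0.55 to 2.38, with a median of -0.90 (-1.10 after quantile normalization), and 24 of them by at least 1. Of the 412, 213 were read by more than 1 kept probe set, and for 196 all of these moved the same way, as they did for 18 of 21 among the 58. None of the 65 lists of genes read here held 255 of the risers and 32 of the fallers.

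The arrays of 9 and 10 h extend the course of these genes. As deposited, the median riser outside the cell cycle stood 0.72, 1.22 and 1.01 above its early mean at 6, 7 and 8 h and 1.02 and 1.25 above it at 9 and 10 h, and after quantile normalization the values were 0.56, 0.89, 0.91, 0.86 and 0.86. The median cell cycle riser stood at 0.83, 1.07 and 0.97 at 6, 7 and 8 h after quantile normalization and came down to 0.74 and 0.50 at 9 and 10 h. The 9 and 10 h arrays entered the estimate of the spread but not the difference. The highest DMSO array of the 350 risers outside the cell cycle was that of 10 h for 202 genes as deposited (57.7%, against 38.6% of all kept genes) and for 99 after quantile normalization (28.3%, against 14.3%), so the hour of the maximum depended on the scale. Genes chosen to be higher late cannot peak in the early window, which by itself raises both shares.

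Ribosome biogenesis had more members called than any other list outside the cell cycle. Lists so named are those other than the 6 cell cycle lists, and they can still hold CCS genes. Of the ribosome biogenesis genes called on both scales, NOP16 is a CCS gene and was counted above as a cell cycle gene. Of 103 listed genes, 95 were kept, and 27 of them (28.4%, against 4.51% of all kept genes) were higher on both scales, with none lower on either. As deposited 32 were called (33.7%, against 5.41%), after quantile normalization 29, and without the 4 h array 23. The median difference of the 95 genes was 0.47 as deposited and 0.31 after quantile normalization, against 0.06 and -0.10 for all kept genes, and these were the highest medians of the 59 lists outside the cell cycle. A raised mean was found for 85 of 95 members as deposited (89.5%, against 57.5% of all kept genes) and for 79 after quantile normalization (83.2%, against 37.7%), which leaves 10 and 16 members with differences below 0. The median stayed between 0.41 and 0.55 as deposited, and between 0.26 and 0.39 after quantile normalization, when each DMSO array was left out in turn, although no member passed without the 2, 7 or 8 h array. The list was written with earlier results of these arrays known, and no test of it as a set was made.

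DDX10, an RNA helicase of small subunit assembly, was the member that rose most. Its log2 signals were 8.71, 8.69 and 9.26 at 0, 2 and 4 h and 10.24, 10.86 and 10.71 at 6, 7 and 8 h, a difference of 1.72 (SE 0.21, adjusted p = 0.0184; 1.51 after quantile normalization). UTP20, a component of the small subunit processome, went from 6.83, 5.60 and 6.10 to 7.39, 8.30 and 7.50, a difference of 1.56. Neither gene had a late array below an early one, and UTP20 was the more scattered of the pair in both windows. NOP16, a nucleolar factor of the large subunit, stood at 10.41, 10.53 and 10.57 and then at 11.32, 11.78 and 11.91, and rose by 1.17 (SE 0.17, adjusted p = 0.0190). PNO1, which accompanies the maturing small subunit, stood at 10.40, 10.71 and 10.73 and then at 11.39, 11.72 and 11.89. WDR75, a processome protein, was flat at 10.93, 10.99 and 10.93 early and stood at 11.68, 11.79 and 11.59 late. In these 3 genes the early arrays lay close together. The largest step between successive arrays fell between 4 and 6 h, a longer interval than those between the late arrays.

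Genes of the machinery that transcribes ribosomal RNA were among the members that rose. POLR1B, the second largest subunit of RNA polymerase I, had signals of 10.01, 10.16 and 10.54 early and 11.15, 11.30 and 11.35 late and rose by 1.03 (SE 0.16, adjusted p = 0.0204), with all 4 of its kept probe sets raised. POLR1A, the largest subunit, stood at 6.62, 6.33 and 6.70 and then at 7.20, 8.12 and 7.48, a difference of 1.05 (adjusted p = 0.0438). TAF1A, of the promoter factor SL1, rose by 1.28. Other members of this machinery were not called, with differences of 0.85 for POLR1C, 0.23 for POLR1E, -0.09 for POLR1D, 0.29, 0.59 and 0.70 for TAF1B, TAF1C and TAF1D, and -0.23 for UBTF, the upstream binding factor. RRN3, the initiation factor that joins the polymerase to its promoter, was called as deposited (0.80, adjusted p = 0.0433) and missed the threshold after quantile normalization (0.63, adjusted p = 0.0527). The other genes called on both scales were the processome and helicase genes WDR3, WDR36, UTP6, UTP23, IMP4, DDX55, DDX56, DHX33 and NOL10, the acetyltransferase NAT10, the methyltransferase EMG1, the large subunit factors RRP1B, MRTO4, WDR74 and DDX21, and NOLC1, RRP12, LYAR and TSR1, with differences of 0.49 to 1.27. Of the 27 genes, 15 were read by several kept probe sets, all in the same direction in each case, and 16 were also called without the 4 h array, UTP20 and POLR1A not among them. The direction is that of the sign alone, and the probe sets of WDR74 had differences from 0.02 to 0.91. NCL and FBL, which encode nucleolin and fibrillarin and were looked up after the values were seen, had differences of 0.05 (adjusted p = 0.676) and -0.13 (adjusted p = 0.416), and gave no call.

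At 9 and 10 h with DMSO the ribosome biogenesis list stood no lower than at 8 h on either scale. Relative to the early mean, the median ribosome biogenesis gene stood at 0.36, 0.60 and 0.50 at 6, 7 and 8 h, at 0.54 at 9 h and at 0.94 at 10 h as deposited, and at 0.20, 0.32, 0.43, 0.46 and 0.56 after quantile normalization. Over the same hours the median gene for spindle, kinetochore and cytokinesis proteins stood at 0.64, 0.62, 0.46, 0.13 and 0.17 as deposited. After quantile normalization it stood at 0.48, 0.51, 0.45, 0.16 and -0.13. With nocodazole the median ribosome biogenesis gene stood at 0.30 and 0.47 at 7 and 8 h and at 0.42 and 0.49 at 9 and 10 h after quantile normalization. As deposited it stood at 0.50 and 0.62 and then lower, at 0.28 and 0.25, on arrays where the median of all kept genes was -0.19 and -0.27. The course with nocodazole thus depended on the scale. All of these values share the early arrays as their reference.

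Genes for the ribosomal proteins themselves gave no such calls. Of 56 kept genes for cytosolic ribosomal proteins, none was called as deposited (limma, with 5 at an unadjusted p under 0.05, 4 of them lower), the late arrays lay below the early ones for 14 (25.0%, against 9.98% of all kept genes), and the median difference was -0.07 (-0.02 after quantile normalization). After quantile normalization 1 was called higher, RPL7L1, a ribosomal protein paralogue (0.34, adjusted p = 0.0330). Translation factors had a median of -0.02 on both scales, with none of 46 called as deposited (4 at an unadjusted p under 0.05). Genes of oxidative phosphorylation, the respiratory chain of mitochondria, had a median of -0.15 (-0.14 after quantile normalization) with none of 64 called as deposited (9 at an unadjusted p under 0.05, all lower) and 5 lower after quantile normalization (7.81%, against 4.6%), and for 20 of the 64 (31.3%, against 9.98%) the late arrays lay below the early ones. COX6C, a cytochrome oxidase subunit, was the nearest to a call as deposited, with 14.45, 14.48 and 14.85 early and 14.37, 14.17 and 14.11 late, a difference of -0.37 (adjusted p = 0.112). Its highest early value was that of the 4 h array, and it was not among the 5 called after quantile normalization (adjusted p = 0.0896). Proteasome genes (median -0.10) and glycolysis genes (median -0.07) gave no call on either scale, with 4 of 39 and 4 of 23 at an unadjusted p under 0.05 as deposited. In the same limma fit 2274 of all 9130 kept genes were under that level.

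**Figure D3:**
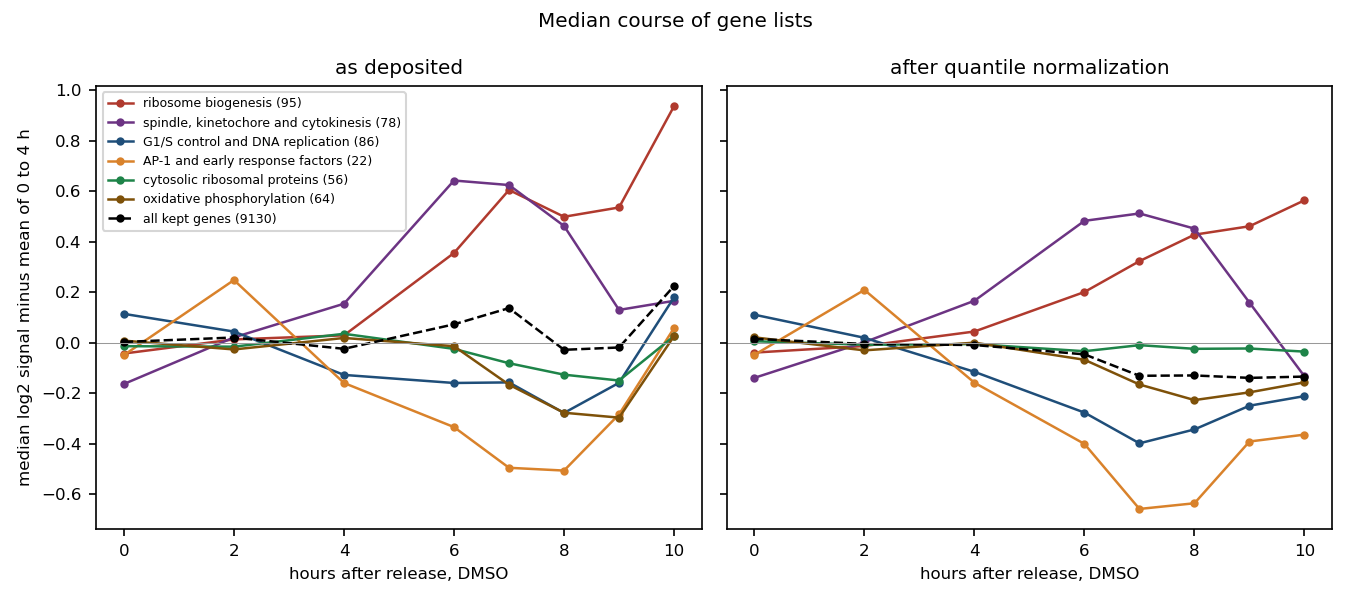
Median log2 signal of 6 gene lists and of all kept genes (dashed) minus the mean of 0 to 4 h (vertical axes) by hours after release with DMSO (horizontal axes), as deposited on the left and after quantile normalization on the right, with 1 array per hour. Ribosome biogenesis genes reach 0.94 (left) and 0.56 (right) at 10 h, when spindle genes have come down and ribosomal protein genes are at 0.03 and -0.04.

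Promoter sequence was read for the genes that moved together, from the RefSeq table of build GRCh38.p14, over 250 bases before and 50 bases after each start and on both strands. Of the kept genes 7585 had an entry, as had 82 of the 95 ribosome biogenesis genes. The E-box CACGTG, the site of MYC and related factors, was in 34.1% of those 82 promoters, in 23.8% of the 21 of members higher on both scales (which held TTTGAA in 28.6%), in 10.8% of the promoters of all kept genes and in 7.43% of all promoters in the table. The ETS-like CCGGAAG was in 45.1% of the 82 and in 21.6% of all kept genes. Among genes higher on both scales, cell cycle genes held the cell cycle homology region TTTGAA (CHR) in 63.5% and CCAAT in 69.2% of 52 promoters, against 9.78% and 37.5% of all kept genes, and both together in 57.7% against 4.22%. The risers outside the cell cycle held TTTGAA in 13.1% and CCAAT in 33.2% of 298 promoters, and both in 4.36%. The genes lower on both scales held CACGTG in 4 and TTTGAA in 3 of 50 promoters. These shares describe letters in a window, and no test of them was made.

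The promoters shown were chosen among genes higher on both scales. They are those of the 3 ribosome biogenesis genes with the largest differences among such members with CACGTG upstream of the start, and of the 3 cell cycle genes likewise for TTTGAA with CCAAT. The sequences are the 250 bases before the start, 5′ to 3′ on the strand of the gene, and capitals mark CACGTG in the first 3 and TTTGAA and CCAAT in the last 3, on either strand, with matches to the letters of the other set left in lower case. UTP20 lies at chr12:101279855-101280104, NAT10 at chr11:34105379-34105628 and IMP4 at chr2:130342647-130342896 on the plus strand. PLK1 lies at chr16:23678639-23678888 on the plus strand, PIF1 at chr15:64825648-64825897 and ASPM at chr1:197146670-197146919 on the minus strand.
UTP20: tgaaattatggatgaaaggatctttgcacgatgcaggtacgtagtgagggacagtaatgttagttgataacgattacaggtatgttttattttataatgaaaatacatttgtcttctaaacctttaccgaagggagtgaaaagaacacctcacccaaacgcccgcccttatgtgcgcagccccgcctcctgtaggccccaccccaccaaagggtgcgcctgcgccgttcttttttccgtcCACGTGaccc
NAT10: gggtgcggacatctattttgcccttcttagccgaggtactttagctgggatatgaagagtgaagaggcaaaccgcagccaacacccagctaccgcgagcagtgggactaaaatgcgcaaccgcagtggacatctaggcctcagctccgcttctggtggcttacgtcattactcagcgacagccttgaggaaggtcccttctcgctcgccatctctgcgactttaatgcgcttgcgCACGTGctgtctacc
IMP4: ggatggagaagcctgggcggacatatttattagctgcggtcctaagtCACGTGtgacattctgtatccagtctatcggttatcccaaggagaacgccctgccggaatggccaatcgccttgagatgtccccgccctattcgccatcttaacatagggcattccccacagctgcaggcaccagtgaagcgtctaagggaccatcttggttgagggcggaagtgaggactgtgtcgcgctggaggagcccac
PLK1: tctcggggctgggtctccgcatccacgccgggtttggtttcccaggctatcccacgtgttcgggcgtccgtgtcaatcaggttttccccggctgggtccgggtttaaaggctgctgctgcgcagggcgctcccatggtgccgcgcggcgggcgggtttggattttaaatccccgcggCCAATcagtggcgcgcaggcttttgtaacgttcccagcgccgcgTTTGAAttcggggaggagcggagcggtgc
PIF1: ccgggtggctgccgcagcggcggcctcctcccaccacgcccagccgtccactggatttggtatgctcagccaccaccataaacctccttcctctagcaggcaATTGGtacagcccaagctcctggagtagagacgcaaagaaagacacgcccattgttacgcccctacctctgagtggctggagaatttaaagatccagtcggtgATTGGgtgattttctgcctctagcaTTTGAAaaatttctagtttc
ASPM: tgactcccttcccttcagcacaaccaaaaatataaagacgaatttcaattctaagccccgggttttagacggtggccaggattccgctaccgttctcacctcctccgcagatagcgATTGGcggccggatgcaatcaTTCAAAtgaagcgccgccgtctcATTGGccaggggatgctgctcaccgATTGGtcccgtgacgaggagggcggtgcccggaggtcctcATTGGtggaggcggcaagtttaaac

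The largest single differences belonged to genes outside all of these groups. JADE2, a PHD finger protein of histone acetyltransferase complexes, had log2 signals of 4.59, 3.56 and 5.54 at 0, 2 and 4 h and of 7.66, 8.59 and 7.86 at 6, 7 and 8 h, and rose by 3.48 (SE 0.45, adjusted p = 0.0184), the largest rise of any kept gene on both scales without overlap. TNFAIP8L1, of the TNFAIP8 family of lipid transfer proteins, went from 5.40, 5.93 and 8.18 to 9.47, 9.97 and 9.02, and had its highest early value at 4 h. KAZN, the cell junction protein kazrin, went from 6.32, 5.26 and 6.57 to 8.04, 9.59 and 9.29. Each of the 3 was raised in all late arrays, and of the 3 KAZN had come down least by 10 h. COL27A1, a fibrillar collagen chain, moved late, with 5.20, 4.54 and 4.87 early and 5.95, 8.94 and 8.46 at 6, 7 and 8 h, a difference of 2.91 (SE 0.67, adjusted p = 0.0414). The differences of its 3 kept probe sets ran from 0.005 to 2.91, so the probe sets did not share the size of the rise. SOX8, a transcription factor of the SOX family, had low signals early (3.52, 3.70 and 3.50) and stood at 4.65, 6.68 and 6.50 late. TET3, an enzyme that oxidizes 5-methylcytosine, had its lowest value at 4 h (7.65, 8.48 and 6.10 early) and 9.10, 9.95 and 9.80 late. Its 2 kept probe sets had differences of 0.40 and 2.21. COL27A1 and RRN3P1 were not called without the 4 h array. SOX8 and ADGRE2 reached the filter level on none of the early arrays and were kept through the arrays where they are high, as were 13 of the 412 genes, so a difference was required of them.

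Among the 15 largest risers outside the cell cycle, VKORC1L1 and CAPN15 had the smallest spread within the early window. VKORC1L1, a vitamin K epoxide reductase, was at 5.93, 6.01 and 5.93 early and at 7.60, 8.61 and 8.67 late, a difference of 2.33 (SE 0.28, adjusted p = 0.0184). G2E3, a ubiquitin ligase, rose by 2.25, with all 5 of its kept probe sets raised. CAPN15, a calpain, was at 6.21, 6.42 and 6.29 and then at 7.77, 8.70 and 8.74. PRR5, a subunit of the mTORC2 complex, TULP4, of the tubby family, ADGRE2, an adhesion receptor, TTYH2, a chloride channel, and LOC100190986, a transcript without an assigned function, rose by 2.67, 2.46, 2.61, 2.27 and 2.15. The 2 kept probe sets of TTYH2 had differences of 0.39 and 2.27. RRN3P1, a pseudogene of RRN3, rose by 2.62, but its probe set is of the kind that can bind several transcripts, and its signal cannot be told from that of RRN3. In 10 of these 15 genes the early mean lay under 6, low on the scale of these arrays.

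**Figure D4:**
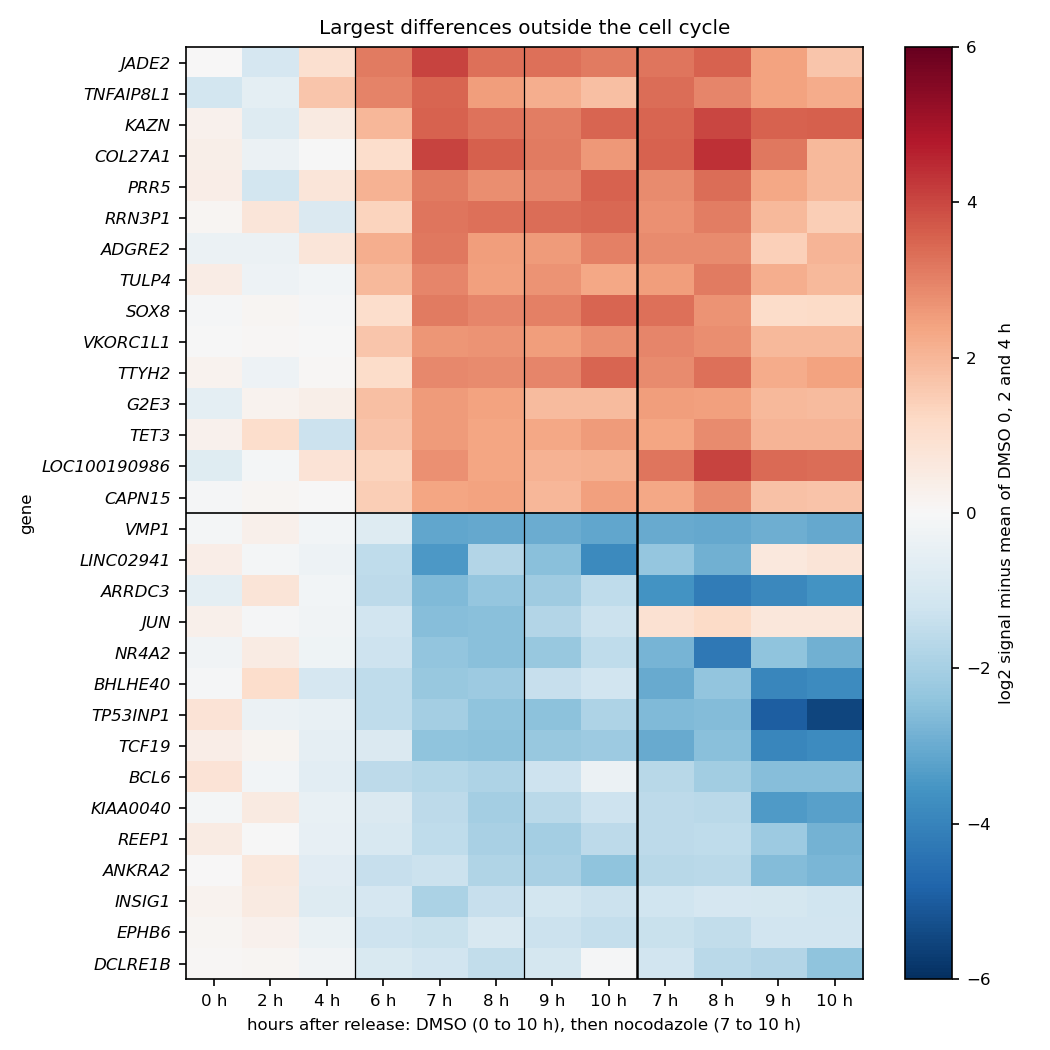
Log2 signal minus the mean of DMSO 0, 2 and 4 h (colour) for the 15 largest rises and the 15 largest falls outside the cell cycle (vertical axis), over the 8 DMSO and 4 nocodazole arrays (horizontal axis, hours after release). Risers are red and fallers blue from 6 h on with DMSO, BCL6 and DCLRE1B return toward their early level at 10 h, and JUN is the faller that is red on all 4 nocodazole arrays.

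Transcription factors were among the largest fallers. JUN, a subunit of AP-1, had log2 signals of 9.80, 9.43 and 9.29 at 0, 2 and 4 h and of 8.37, 6.98 and 7.02 at 6, 7 and 8 h, and fell by 2.05 (SE 0.36, adjusted p = 0.0255), which is to 0.24 of its early signal on the linear scale. The differences of its 3 kept probe sets ran from -2.05 to -0.07, so the probe sets did not share the size of the fall. The probe set read here, with the largest fall, is of the kind that can bind several transcripts. NR4A2, an orphan nuclear receptor induced by growth and stress signals, went from 9.87, 10.54 and 9.81 to 8.85, 7.72 and 7.57 and fell by 2.02. Both had their lowest DMSO values at 7 and 8 h and stood higher at 10 h (8.21 and 8.54). With nocodazole JUN stood at 10.42 and 10.64 and NR4A2 at 7.27 and 5.76 at 7 and 8 h, so that the pair parted there. Of 22 kept AP-1 and early response genes these 2 were lower on both scales (9.09%, against 0.635%), none was higher, and after quantile normalization 7 were lower (31.8%, against 4.6%). The median of the list was -0.50 (-0.70 after quantile normalization), the lowest of the lists with at least 20 kept genes. ATF3 and JUNB, looked up after the values were seen, were among those called on the quantile scale alone, with deposited differences of -1.37 (adjusted p = 0.0507) and -0.78 (adjusted p = 0.0837).

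BHLHE40, a repressor tied to hypoxia and the circadian clock, was highest at 2 h, with 9.94, 11.08 and 9.00 early and 8.49, 7.76 and 7.82 late, and fell by 1.99 (adjusted p = 0.0415). TCF19, a PHD finger protein, went from 9.14, 8.91 and 8.18 to 7.88, 6.34 and 6.28. BCL6, a zinc finger repressor, went from 6.29, 5.32 and 4.84 to 3.92, 3.79 and 3.61, and reached the filter level at 0, 2 and 10 h. ELF3, an epithelial ETS factor, fell by 0.87 and ZNF503, a zinc finger repressor, by 0.84. These falls were seen in every late array, and none of the genes was back at its early mean by 10 h, where BCL6, at 5.14 against a mean of 5.49, and ZNF503, at 11.88 against 12.23, came nearest.

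Upward, the transcription factor lists held few calls. Of 194 kept zinc finger genes 7 were higher on both scales (3.61%, against 4.51%), among them ZNF559 (4.86, 4.82 and 5.96 early, 6.80, 7.81 and 7.21 late), ZNF134 and ZNF22, with differences of 2.06, 1.79 and 1.31. MGA, a dimerization partner of MAX, rose by 1.86 (SE 0.31, adjusted p = 0.0220), from 7.11, 6.96 and 7.02 to 8.07, 9.38 and 9.23, though 1 of its 4 kept probe sets pointed down. NR2F6, an orphan nuclear receptor, rose by 1.29. MYC itself, looked up after the values were seen, had signals of 11.67, 12.70 and 12.65 early and 13.27, 13.31 and 13.23 late, which did not overlap, and a difference of 0.93 (adjusted p = 0.0607; 0.0341 after quantile normalization). The lists of homeobox factors, forkhead and SOX factors (SOX8 was not among them), KLF and SP factors, circadian factors and interferon and STAT factors gave no call as deposited, with 1 of 22, 3 of 16, 4 of 12, 1 of 9 and 1 of 17 genes at an unadjusted p under 0.05. Among them KLF13 had a difference of -0.58 (adjusted p = 0.0889) and FOXA3 one of 1.03 (adjusted p = 0.0785). Of all 9130 kept genes, 2274 had an unadjusted p under 0.05 in that fit (limma, as deposited).

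Chromatin regulators and the general machinery of RNA polymerase II had raised medians as deposited and medians near 0 after quantile normalization. The 113 kept chromatin genes had a median of 0.18 and -0.01, the 75 Mediator and polymerase II genes one of 0.20 and 0.01, and 6 chromatin genes were higher on both (5.31%, against 4.51%). These were TET3, PHC3 (with 1 of 2 kept probe sets pointing down), SETD2, EHMT1, KDM5B and KAT6A. SETD2, the histone H3 lysine 36 methyltransferase, went from 7.76, 7.18 and 7.77 to 8.35, 9.73 and 9.49 and rose by 1.62, with 1 of 3 kept probe sets pointing down. EHMT1, a methyltransferase of histone H3 lysine 9, went from 7.85, 7.89 and 8.50 to 9.21, 9.68 and 9.53 (difference 1.40, SE 0.22, adjusted p = 0.0220), and KDM5B, a demethylase of histone H3 lysine 4, from 5.50, 5.92 and 6.35 to 6.98, 7.75 and 7.32. Of 75 Mediator and polymerase II genes 4 were higher on both scales (5.33%), with differences of 0.87 for MED13, 1.42 for MED13L, 1.03 for TAF4 and 0.73 for TAF7, of which TAF4 was not called without the 4 h array. The 4 kept probe sets of MED13L had differences from 0.07 to 2.38. The late arrays of MED13 (11.20, 11.28 and 11.20) and of TAF7 (10.94, 11.02 and 11.02) lay close together.

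Calls among p53 targets and stress genes went both ways. Of 36 kept p53 targets, CDKN1A and TP53INP1 were lower on both scales (5.56%, against 0.635%) and KITLG was higher. CDKN1A, the p21 inhibitor of cyclin kinases, stood at 13.98, 13.82 and 13.37 early and at 12.98, 12.53 and 12.42 late, a fall by 1.08 (SE 0.21, adjusted p = 0.0307). TP53INP1, an autophagy and p53 cofactor, went from 9.00, 7.86 and 7.74 to 6.69, 6.18 and 5.79 and fell by 1.98. KITLG, the ligand of the KIT receptor, rose by 0.80 from 12.96, 13.34 and 13.58 to 14.06, 14.14 and 14.09. The list had a median of -0.25 (-0.41 after quantile normalization), and 8 of its genes were lower after quantile normalization (22.2%, against 4.6%). Outside these lists ARRDC3, an arrestin domain protein, fell by 2.18, from 7.69, 9.05 and 8.12 to 6.74, 5.63 and 5.95, and VMP1, a membrane protein of autophagosome formation, by 2.32, from 6.86, 7.29 and 6.82 to 6.21, 3.85 and 3.94, with its largest step between 6 and 7 h and its call lost without the 4 h array. Heat shock chaperones (1 of 56 higher on both scales, BAG2, by 0.70) and unfolded protein response genes (none of 38 called as deposited, 9 at an unadjusted p under 0.05) had medians of 0.02 and -0.14 after quantile normalization.

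In metabolism the calls were few and single. INSIG1, which holds the sterol sensor in the endoplasmic reticulum and is itself switched on by SREBP, went from 9.96, 10.30 and 8.96 to 8.76, 7.84 and 8.34 and fell by 1.43 (SE 0.35, adjusted p = 0.0498). It was the 1 of 24 kept cholesterol genes called as deposited, while 6 were lower after quantile normalization (25.0%, against 4.6%) and the median was -0.17 (-0.37 after quantile normalization), with 20 of the 24 below 0. MAT2A, which makes S-adenosylmethionine, rose by 0.95, from 11.25, 11.50 and 11.78 to 12.07, 12.68 and 12.65, and SLC25A32, the mitochondrial folate carrier, by 0.78. ACACA, the first enzyme of fatty acid synthesis, rose by 0.93, and the amino acid carriers SLC7A5 and SLC38A1 rose by 0.58 (SE 0.13, adjusted p = 0.0429) and 0.45. SAT1, which breaks down polyamines, went from 12.89, 13.09 and 12.83 to 12.47, 11.89 and 12.07 and fell by 0.80, a call lost without the 4 h array. Of 32 kept aminoacyl-tRNA synthetases 2 were higher on both scales (6.25%, against 4.51%), both of them mitochondrial: MARS2, with 6.58, 6.66 and 5.85 early and 7.42, 8.55 and 8.58 late (difference 1.82), and LARS2 (difference 0.99). The calls of ACACA, SLC38A1 and LARS2 were also lost without the 4 h array. The tricarboxylic acid cycle, purine and pyrimidine synthesis, fatty acid oxidation and glutathione lists held no gene called on both scales, of 26, 31, 31 and 31 kept, while after quantile normalization 4 tricarboxylic acid cycle genes (15.4%) and 4 purine and pyrimidine genes (12.9%) were lower, against 4.6% of all kept genes.

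Calls among signalling genes were single. In the Notch pathway the ligands parted: JAG2 went from 9.58, 9.64 and 9.93 to 10.33, 10.95 and 10.76, a difference of 0.97, and JAG1 from 9.84, 9.68 and 9.67 to 9.19, 8.99 and 9.09, a fall by 0.64 that was not called without the 4 h array, while the receptor NOTCH2 went from 9.86, 9.82 and 10.17 to 10.81, 11.23 and 11.19 and rose by 1.12 (SE 0.15, adjusted p = 0.0184). All 3 kept probe sets of NOTCH2, and both of JAG2, pointed the same way as the gene. The 3 of JAG1 had differences from -0.64 to -0.03, the last of them close to no change. In the Hippo pathway TEAD1, the DNA-binding partner of YAP, rose by 1.04, with most of the step between 4 h and 6 h (10.37, 10.32 and 10.66 early, 11.55, 11.49 and 11.43 late), and PTPN14, a phosphatase that binds YAP, by 0.94. The Wnt coreceptor LRP5 rose by 1.47 and CD44, a Wnt target and hyaluronan receptor, by 0.60, with all 9 of its kept probe sets raised. DUSP2, a nuclear MAPK phosphatase, went from 5.85, 5.91 and 5.84 to 6.58, 8.20 and 7.55, and MAP2K4, a kinase upstream of JNK, rose by 0.78, and neither was called without the 4 h array. The other calls were SMAD5 (0.90), a BMP effector, TRAF3 (0.89), a brake on NF-kB signalling, BTC (1.46), an EGFR ligand likewise under the filter level on the early arrays, CASP8 (0.69) and PAWR (0.91), both of apoptosis, and downward EIF4EBP2 (-0.68), a translation repressor, for which 1 of 4 kept probe sets pointed down and which was not called without the 4 h array. No signalling list had more than 10.0% of its kept genes higher on both scales.

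Nuclear transport genes and factors of mRNA turnover also held calls. Of 57 kept nuclear pore and import genes 7 were higher on both scales (12.3%, against 4.51%) and none was lower. NUP98, a mobile nucleoporin, went from 8.82, 8.79 and 8.80 to 9.44, 10.45 and 10.18 and rose by 1.22 (SE 0.24, adjusted p = 0.0305), NUP35 by 1.09, RANBP2 by 0.79 and RAE1 by 0.71. RANBP2 is also found at kinetochores. The median of the list was 0.18 as deposited and 0.00 after quantile normalization. Of 77 kept genes of mRNA decay and 3' end processing 6 were higher on both scales (7.79%), among them the decapping factors DCP2 (0.83) and EDC3 (1.13), the exosome subunit EXOSC4 (0.62) and XPO5 (0.96), the exportin of microRNA precursors. For DCP2, 2 of 3 kept probe sets pointed up. Splicing factors gave 2 of 100 (2.00%), SRPK2 and SF1, the latter not called without the 4 h array. Of 121 ubiquitin ligases and proteases 8 were higher (6.61%) and 2 lower (1.65%), with CUL4B (1.15), USP13 (1.16) and TRIM33 (1.12) upward and UBR7 (-0.81) downward. NUP98 and UBR7 are also among the genes counted above as cell cycle genes.

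Adhesion and matrix genes gave 5 calls among 48 kept (10.4%, against 4.51%), all upward. PTK2, the focal adhesion kinase, went from 9.71, 9.95 and 9.97 to 10.76, 11.19 and 10.93 and rose by 1.08 (SE 0.14, adjusted p = 0.0184), and COL12A1, a collagen associated with fibrils, from 10.48, 10.46 and 10.52 to 11.13, 12.33 and 12.13. The others were COL27A1, whose 3 kept probe sets had differences from 0.005 to 2.91, CD44 and TNS3. In the secretory pathway the SNARE genes BET1L and STX6 rose by 1.21 and 0.87, and RAB23 and the golgin gene GCC2 fell by 0.98 and 0.70, the call of GCC2 being lost without the 4 h array. The ion carriers SLC4A7, a bicarbonate transporter, and SLC30A6, a zinc transporter, rose by 1.33 and 1.23, and the chloride channel ANO1 by 0.80. Epithelial junction and keratin genes gave no call on both scales among 47, with KRT7 nearest as deposited (1.22, adjusted p = 0.0513).

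**Figure D5:**
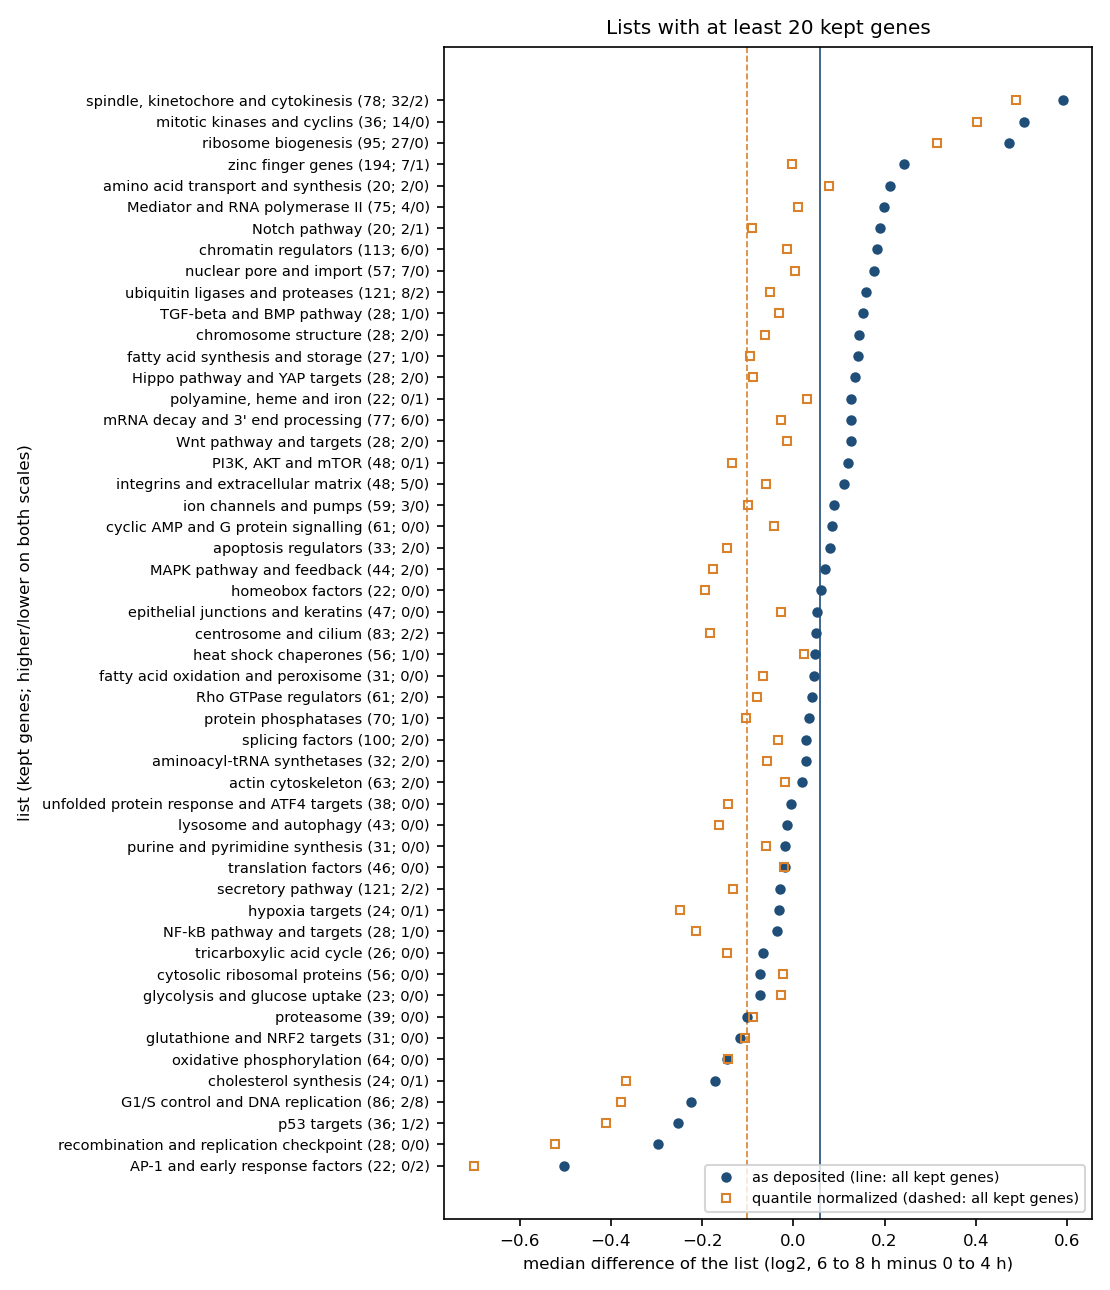
Median difference between the windows (horizontal axis, log2) of each list with at least 20 kept genes (vertical axis), as deposited (filled) and after quantile normalization (open), with lines for the medians of all kept genes at 0.06 and -0.10. Numbers after a list are its kept genes and its genes higher and lower on both scales, and ribosome biogenesis stands next to the mitotic lists, at 0.47 and 0.31.

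The cell cycle lists themselves serve as the yardstick. Mitotic kinases and cyclins had 14 of 36 genes higher on both scales (38.9%) and spindle, kinetochore and cytokinesis genes 32 of 78 (41.0%), so that ribosome biogenesis, with 28.4%, came nearer to them than any other list with at least 20 kept genes. BUB1B, a checkpoint kinase, had the smallest p among the kinases, with 11.73, 11.90 and 11.84 early, 12.78, 12.88 and 12.85 late and a difference of 1.01 (SE 0.09, adjusted p = 0.00786). PIF1, a helicase, ASPM, a spindle pole protein, FAM216A and KIF20A, a kinesin, rose by 2.21, 2.10, 2.10 and 1.96. Downward, G1/S and replication genes had 8 of 86 lower on both scales (9.30%, against 0.635%) and 24 after quantile normalization (27.9%, against 4.6%), among them CDK2, with 12.39, 12.32 and 11.98 early and 11.69, 11.36 and 11.37 late. CCND1, the cyclin D1 gene, went against this list, from 12.87, 12.96 and 13.21 to 13.68, 13.71 and 13.83, a rise by 0.73 (SE 0.11, adjusted p = 0.0194), as did ORC5, a subunit of the origin recognition complex (0.99). In the spindle, kinetochore and cytokinesis list, CENPQ and DSN1 were lower on both scales, by 1.33 and 1.32 as deposited. They were not the only members that fell: 18 of the 78 had differences below 0 as deposited and 22 after quantile normalization, where 5 were called lower.

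Of 56 replication-dependent histone genes, whose transcripts lack poly(A) tails, 4 passed the level filter, and none was called (2 at an unadjusted p under 0.05). H2BC6 had log2 signals of 3.88, 6.10 and 6.59 at 0, 2 and 4 h and 3.95, 3.72 and 3.34 at 6, 7 and 8 h, a difference of -1.86 (adjusted p = 0.162). Of the 8 DMSO arrays those of 2, 4 and 10 h (5.80) had a signal above 5, so the 0 h array lay with the late ones and the windows overlapped.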

How the data were processed

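The series holds 12 arrays of synchronized HCT116 cells, 1 per hour and treatment. Per the labels, the authors' deposited values are log2 signals made with GC-RMA, which corrects each probe for a background set by its base composition and summarizes probes into probe sets; its version was not given in the sources used here. Differences of dim genes depend most on that background, and the medians of the arrays still differed in the deposited values, so that the scaling was varied here. Each of the 12 columns was matched to a sample by its name, and 0 columns belonged to no sample. Of 54675 probe sets, 41097 carried 1 gene symbol, 1801 several and 11777 none in the platform annotation. A log2 signal of at least 5 on at least 2 arrays kept 15030 of the 41097, and the probe set with the highest mean over the arrays stood for each of 9130 genes, 5302 of which had no other kept probe set.

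The late window (6, 7 and 8 h) was compared with the early window (0, 2 and 4 h) with limma 3.58.1 in R 4.3.3, with the 8 DMSO arrays in 3 windows (9 and 10 h for the spread) and a variance prior with an intensity trend. The p-values are two-sided and adjusted by the Benjamini-Hochberg method over all kept genes. The same fit was made after quantile normalization over the 12 arrays. A difference is the mean log2 of the late window minus that of the early window. An exact permutation test of 3 arrays against 3 cannot give a p below 0.1, and was not used. On simulated arrays with the means and spread of this comparison, 68 of 100 changes of 1 log2 unit and 89 of 100 changes of 2 units were recovered, with 10 false calls among 8930 unchanged genes. The simulated noise was independent between genes and between arrays. It held no shift of a whole array and no trend within a window, which the real arrays have. These counts therefore check the fit and do not give the error rate of the real calls. The number of arrays limits the precision.

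The genes and lists were chosen with earlier results of these data known, and counts and medians are given in place of set tests. The genes named are the 4 phase markers, the 15 largest differences in each direction outside the cell cycle and the 6 inside it among genes called on both scales without overlap, up to 4 such members of each list by smallest adjusted p (or 2 nearest values where there was none), and the cell line markers. Further members called on both scales are named as parts of counts, and genes outside this rule are stated as looked up after the values were seen. The 252 CCS genes were taken from the study by symbol, to mark cell cycle genes. Promoters came from RefSeq, build GRCh38.p14. Tables and figures were made with pandas 2.3.3, matplotlib 3.10.9 and numpy 2.4.6 under Python 3.11.15. The alternatives were other scalings, filters, probe set rules, windows and arrays.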

Additional observations from a re-analysis of the deposited data

Results flagged for a closer look

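The 18S ribosomal RNA probe sets, which no comparison used, had a mean log2 signal of 8.32 on the array of 4 h with DMSO, against 3.55 to 4.05 on the other DMSO arrays. This signal was looked at because it lies outside the gene measurements and far above the level of the other arrays. Without the 4 h array 301 of the 412 genes higher and 39 of the 58 genes lower on both scales were still called as deposited.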

How the results depend on the processing

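As deposited, 494 genes were higher, 58 lower and 32 ribosome biogenesis genes higher in the late window. Quantile normalization and centring each array on its median gave 420 and 422 genes lower. Without the filter on low values, over 19775 genes, 64 were higher, 1 was lower and 2 ribosome biogenesis genes were higher. A filter at log2 7 gave 99 lower. With the 6 arrays of the windows alone 97 were higher, 3 lower and 8 ribosome biogenesis genes higher. With 0 and 2 h against 7 and 8 h 882 were higher and 351 lower. Without probe sets ending in _x_at or _s_at, and without the intensity trend, 21 ribosome biogenesis genes were higher in each case. Leaving out each DMSO array in turn gave 0 to 952 higher, 0 to 314 lower and 0 to 39 ribosome biogenesis genes higher. After quantile normalization, an alternative chosen after seeing the data, it gave 0 to 994, 0 to 1489 and 0 to 47. Fewer arrays leave fewer residual degrees of freedom, and more genes tested a stricter adjustment, and beyond that the cause was not tested. The 470 genes were chosen without overlap between the windows, so leaving out an array could not turn their sign, and with other probe set rules 469 of 470 and 345 of 349 kept it. No paired analysis was possible because each condition has 1 array and the numbers within a window only name its hours. Signals near the floor limit what can be said of dim genes, and 18 of the 412 genes higher had an early mean under 5.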
